A study of Mus musculus with 12 samples.

Results

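*Nlrc5* and 9 genes of MHC class I antigen presentation (*B2m*, *H2-K1*, *H2-D1*, *Tap1*, *Tap2*, *Tapbp*, *Psmb8*, *Psmb9* and *Psmb10*) were followed in spermatogonia of surgically cryptorchid and control mouse testes. These are 10 of the 21859 genes in the expression table, found by their gene symbols, and all 10 passed the filter on low values. *Nlrc5* was chosen by its difference between the groups, so its difference is given as a description with no test. The other 9 genes were named for their function. The question was whether the higher level of *Nlrc5* went with higher levels of these class I presentation genes.

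The 12 libraries held RNA of sorted GFRa1+/KIT- spermatogonia, with 5 libraries of control and 7 of cryptorchid testes. GFRa1-EGFP male mice aged 8 to 10 weeks were operated, and testes were taken 10 days later. The left testis had been fixed to the abdominal wall (labelled Cryptorchid), while the right one stayed in the scrotum (labelled WT), so the control testes came from operated animals too. EGFP+/KIT- cells are undifferentiated spermatogonia, which include the stem cells. Testis tissue was digested for 9 min at 32°C for control and 37°C for cryptorchid samples, so the digestion temperature cannot be told apart from the condition. The sources used here do not say which libraries come from the same mouse. The H-2 haplotype of the mice is not stated either, and class I genes are highly polymorphic between strains, so reads of other alleles could have been lost from *H2-K1* and *H2-D1* in both groups.

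Levels are log2 RPM, the log2 of reads scaled to the library total. Reads on genes ran from 4511730 to 24345368 in control and from 3306771 to 20027902 in cryptorchid libraries. A gene was called higher or lower when it differed at least 2-fold with an unadjusted *P*-value under 0.05, and the *P*-value adjusted over all 16932 genes tested is given beside it. By this rule 603 genes (3.56%) were called higher and 399 (2.36%) lower in cryptorchid libraries, and 2 genes (0.0118%) passed an adjusted *P*-value of 0.05. After quantile normalization the calls were split the other way, with 457 higher and 542 lower. Replicates 1 to 3 of both groups formed one technical set and the later replicates another, told from the share of even numbers among recovered reads (53.2% to 60.8% against 48.2% to 50.5%), and differences within each set are given where they bear on a gene. The sorted cells carried the genes of the sort at similar levels, with *Gfra1* at 7.88 ± 0.88 log2 RPM (SD, n = 5) in controls against 8.40 ± 0.70 (SD, n = 7) after surgery. None of the 10 markers of undifferentiated spermatogonia was called.

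MHC class I molecules show peptides from inside a cell to cytotoxic T cells. The proteasome cuts proteins into peptides, and its immunoproteasome form carries the subunits encoded by *Psmb8*, *Psmb9* and *Psmb10*. The TAP1-TAP2 transporter moves peptides into the endoplasmic reticulum, where tapasin (*Tapbp*) bridges it to empty class I molecules made of a heavy chain (*H2-K1* or *H2-D1*) and β2-microglobulin (*B2m*). NLRC5 is a NOD-like receptor protein that enters the nucleus and activates class I genes. It does not bind DNA itself but docks on RFX, CREB/ATF and NF-Y proteins bound to a conserved promoter module, and *Nlrc5* is induced by interferon-γ. Germ cells are known for low class I levels.

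Promoter sequences of these genes were searched for letters of that module. The RefSeq promoter table (GRCm38.p6) held 8 of the 10 genes, with no entry for *Nlrc5* or *Tap2*. The X2 core (TGACG, bound by CREB/ATF proteins) followed after 20 bases by the inverted Y-box core (ATTGG, bound by NF-Y) was present in the windows searched for *B2m*, *H2-K1* and *H2-D1*, and in none of those for the other 5. This spacing was read from these 3 promoters after they had been seen. Of all 32851 promoters searched on both strands, 30 (0.0913%) held it. The 130 bases before the start are shown for these 3 genes, with both cores in capitals, and for *Psmb10*, in which neither core was found. They are *H2-D1* at chr17:35262964-35263093 (plus strand), *H2-K1* at chr17:34000348-34000477 (minus strand), *B2m* at chr2:122147557-122147686 (plus strand) and *Psmb10* at chr8:105938393-105938522 (minus strand), each written 5′ to 3′ in the direction of its gene.
H2-D1: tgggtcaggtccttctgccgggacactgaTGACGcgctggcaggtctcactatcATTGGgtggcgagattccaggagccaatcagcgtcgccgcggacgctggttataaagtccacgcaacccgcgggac
H2-K1: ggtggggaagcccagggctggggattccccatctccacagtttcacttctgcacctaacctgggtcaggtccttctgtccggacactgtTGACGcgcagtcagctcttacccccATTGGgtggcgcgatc
B2m: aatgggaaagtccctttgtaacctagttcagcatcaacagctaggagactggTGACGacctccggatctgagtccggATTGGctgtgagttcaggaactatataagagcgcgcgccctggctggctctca
Psmb10: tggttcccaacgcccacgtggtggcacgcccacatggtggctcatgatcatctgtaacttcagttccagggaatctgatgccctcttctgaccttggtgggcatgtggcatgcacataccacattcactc

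The X2 core began 101 bases before the start in *H2-D1*, 41 in *H2-K1* and 78 in *B2m*. *H2-K1* had another RefSeq start, which lay 55 bases after the beginning of the same core. The core TGACG alone was found in 17.8% of promoters, and CCAAT, which is ATTGG on the other strand, in 33.8%. For the interferon-stimulated response element, the letters GAAA and GAAA with 2 bases between them occurred in *B2m* alone of the 8, against 2.98% of all promoters. Forms of this element that differ in any of these letters were not searched, so the other promoters may still hold one. Among 15 other class I genes with an entry, *H2-M3* alone held the pair of cores at 20 bases. With a gap of 8 to 30 bases, *H2-Q7* held the pair too, as did 216 (0.658%) of all promoters. A match in letters does not show that a protein was bound in these cells. The windows lie before the RefSeq start, which can differ from the gene starts given below. For *Tapbp* the window ended at base 33919477, inside a gene that starts at 33915899. Windows of *Psmb8*, *Psmb9* and *H2-D1* also lay wholly inside their genes, and that of *Psmb10* in part. Bases before the annotated gene start were thus not searched for *Tapbp*, *Psmb8*, *Psmb9* and *H2-D1*. A missing match therefore holds for the window searched only.

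*Nlrc5* (chr8:94434356-94527272, plus strand, GRCm38) was higher in all 7 cryptorchid libraries than in any control library. In control replicates 1 to 5 it stood at 2.47, 2.37, -0.35, 2.71 and 1.73 log2 RPM. In cryptorchid libraries the lowest value was 4.01, the median 4.65 and the highest 4.87. The gap between the groups lay between 2.71 in control replicate 4 and 4.01 in cryptorchid replicate 7. The means were 1.79 ± 1.25 (SD, n = 5) and 4.52 ± 0.31 (SD, n = 7), a difference of 2.74 on the log2 scale, or 6.66-fold. Such a lack of overlap was seen upward for 94 genes (0.555%) and downward for 48 (0.283%) of the genes tested. The values rest on 8 to 149 reads per control library and 75 to 558 per cryptorchid library. Control replicate 3 with its 8 reads lay lowest, and with replicates 3 of both groups left out the difference was 2.14. It was 3.15 within replicates 1 to 3 and 2.21 within the later replicates.

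**Figure D1:**
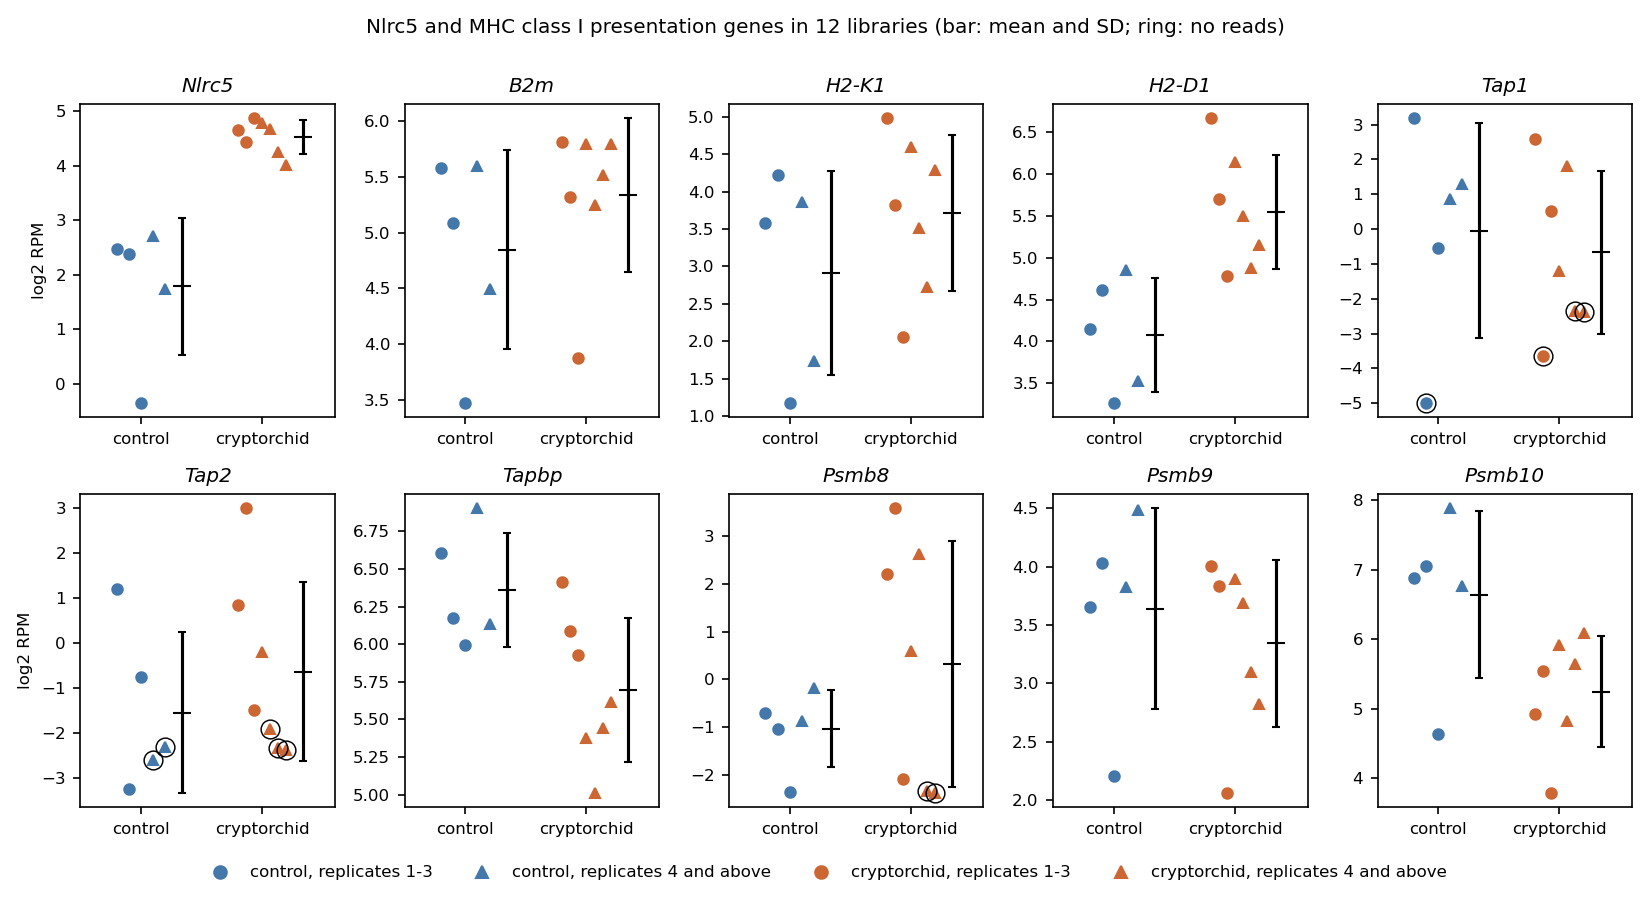
Level of each of the 10 genes (log2 RPM, vertical axis) in 5 control and 7 cryptorchid libraries, with circles for replicates 1 to 3, triangles for later replicates, rings for libraries without a read, and bars for mean and SD. *Nlrc5* is the one gene of the 10 whose groups do not overlap, and *H2-D1* comes nearest to it, with 6 of 7 cryptorchid libraries above every control library.

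Of the 9 presentation genes, 1 was called higher (*H2-D1*) and 1 lower (*Psmb10*), and no adjusted *P*-value was under 0.05. Over all genes tested, the shares called higher and lower were 3.56% and 2.36%. By group means, 5 of the 9 (55.6%) were higher and 4 lower in cryptorchid libraries, and 56.7% of all genes tested were higher. Their median difference was 0.49 on the log2 scale, against 0.10 over all genes tested. With a stricter filter on low values, which left out *Tap1*, *Tap2* and *Psmb8*, the median of the 6 remaining genes was 0.098. Without control replicate 3 this median was 0.15, and without cryptorchid replicate 3 it was 0.74. With both left out it was 0.39, and the same 2 genes were called.

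The heavy chains and their partner form the class I molecule itself. *H2-D1* (chr17:35262730-35267499, plus strand), a classical heavy chain gene, rose 2.77-fold. In control replicates 1 to 5 it stood at 4.15, 4.61, 3.26, 4.85 and 3.53 log2 RPM, and in cryptorchid libraries the lowest, median and highest values were 4.79, 5.50 and 6.67. One cryptorchid library, replicate 3, lay below one control library, replicate 4, and all other libraries were separated. The log2 difference was 1.47 (SE 0.38, adjusted *P* = 0.215), with a 95% interval from 0.66 to 2.28. It was 1.71 within replicates 1 to 3 and 1.23 within the later ones. Of the 50-base stretches of the *H2-D1* transcript, 14.3% also occur in other genes, mainly *H2-Q1*, *H2-Q7* and *H2-Q6*, so part of its reads could have been shared with them.

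*H2-K1* (chr17:33996017-34000347, minus strand), the other classical heavy chain gene measured, was not called. Its control libraries lay at 3.58, 4.22, 1.17, 3.86 and 1.73 log2 RPM, and its cryptorchid libraries ran from 2.06 through a median of 3.82 to 4.98. The groups overlapped, with 3 of 7 cryptorchid libraries above every control library. The log2 difference was 0.80 (SE 0.63, adjusted *P* = 0.723), with an interval from -0.52 to 2.12 that includes both no change and the change of *H2-D1*.

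*B2m* (chr2:122147686-122153083, plus strand), the shared light chain, was not called either. It stood at 5.59, 5.09, 3.47, 5.60 and 4.50 log2 RPM in control libraries and from 3.87 to 5.82 with a median of 5.52 in cryptorchid libraries. Replicate 3 was the lowest library in both groups. The log2 difference was 0.49 (SE 0.41, adjusted *P* = 0.740), with an interval from -0.37 to 1.36.

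The reads of the peptide transporter genes were uneven between libraries of the same group. *Tap1* (chr17:34187553-34197225, plus strand) ran from 0 to 221 reads per control library and from 0 to 134 per cryptorchid library, with no read in 1 control and 3 cryptorchid libraries. *Tap2* (chr17:34203527-34216321, plus strand) had 0 to 56 and 0 to 89 reads, and none in 2 control and 3 cryptorchid libraries. Their log2 differences were -0.62 (SE 1.35) for *Tap1* and 0.91 (SE 1.10) for *Tap2*, and neither difference exceeded the spread between libraries. This spread did not follow depth alone, since *Tap1* had 0 reads in control replicate 2 and 10 in control replicate 4, a shallower library. The direction of *Tap1* turned with the libraries used, from 0.61 within replicates 1 to 3 to -2.10 within the later replicates.

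*Tapbp* (chr17:33915899-33929292, plus strand), which encodes tapasin, had 110 to 2368 reads per library. Its control libraries ranged from 5.99 to 6.90 and its cryptorchid libraries from 5.01 to 6.41 log2 RPM, and 5 of 7 cryptorchid libraries lay below every control library. The log2 difference of -0.67 (SE 0.28, adjusted *P* = 0.470) did not reach 2-fold. It was -0.11 within replicates 1 to 3 and -1.16 within the later replicates, where alone it was called lower.

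Of the 3 immunoproteasome subunits 1 was called, and it was lower. *Psmb10* (chr8:105935735-105938444, minus strand), on the chromosome of *Nlrc5*, fell 2.63-fold. Its control libraries stood at 6.88, 7.06, 4.64, 7.89 and 6.76 log2 RPM, and its cryptorchid libraries ran from 3.79 through 5.54 to 6.10. All control libraries but replicate 3 lay above every cryptorchid library. The log2 difference was -1.40 (SE 0.48, adjusted *P* = 0.366). It was -1.44 within replicates 1 to 3, where alone it was not called, and -1.70 within the later replicates.

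*Psmb9* (chr17:34181987-34187764, minus strand) lay between 2.20 and 4.48 log2 RPM in control and between 2.06 and 4.0 in cryptorchid libraries, a log2 difference of -0.30 (SE 0.48, adjusted *P* = 0.883). Its exons overlap those of *Tap1* on the other strand over 212 bases, and the counting strand is not stated. *Psmb8* (chr17:34197721-34201454, plus strand) was low in controls at 2 to 15 reads and uneven in cryptorchid libraries. Cryptorchid replicates 1, 2, 4 and 5 had 102, 133, 7 and 21 reads and lay above every control library, replicate 3 had 2 reads and replicates 6 and 7 had none. Its log2 difference of 1.34 had an SE of 1.12 (adjusted *P* = 0.740).

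**Figure D2:**
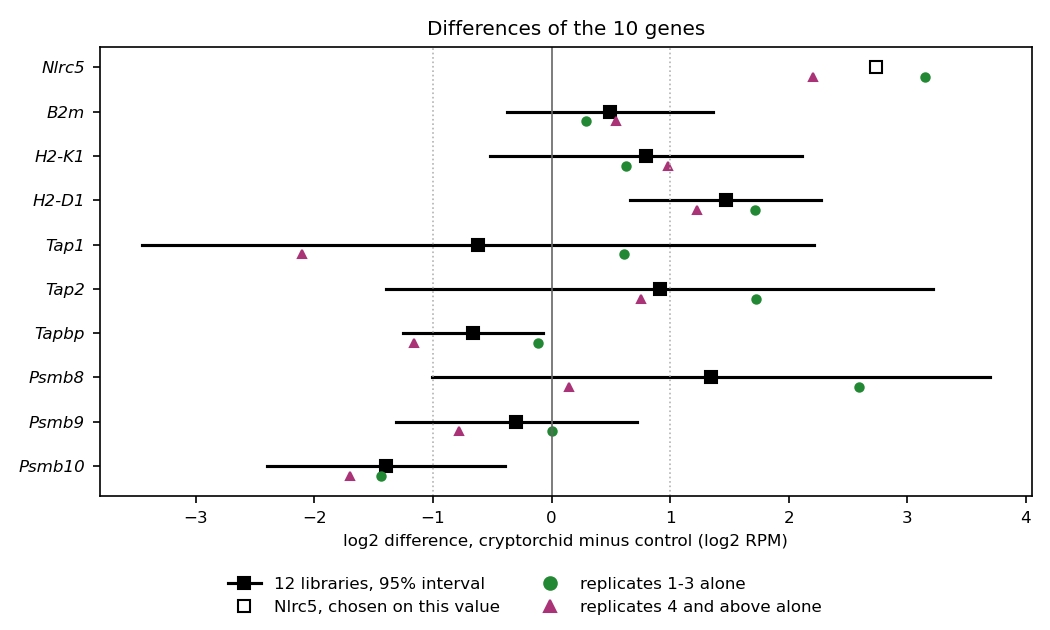
Difference between cryptorchid and control means of each gene (log2 RPM, horizontal axis), with the 95% interval of the limma fit over 12 libraries and the differences within replicates 1 to 3 and within later replicates. The intervals of *H2-D1*, *Psmb10* and *Tapbp* leave out 0, and those of *Tap1*, *Tap2* and *Psmb8* are the widest.

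Per length of transcript, the order of the genes differed between the groups. In control libraries the medians were 69.1 RPM per kilobase of exon for *Psmb10*, 39.5 for *B2m*, 19.9 for *Tapbp*, 6.86 for *H2-D1*, 4.08 for *H2-K1*, 3.88 for *Psmb9* and 0.61 for *Nlrc5*. *Tap1*, *Psmb8* and *Tap2* lay lower, at 0.33, 0.16 and 0.028. In cryptorchid libraries *B2m* stood first at 53.4, followed by *Psmb10* at 27.4, *H2-D1* at 17.6, *Tapbp* at 13.5, *H2-K1* at 4.82, *Psmb9* at 3.52 and *Nlrc5* at 2.95. Neighbours in these orders overlapped in range over libraries except *Tapbp* against *H2-D1* and *Psmb9* against *Nlrc5* in control libraries, so the other steps do not exceed the spread.

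A ratio within a library does not depend on how that library was scaled, and 5 such log2 ratios were compared by an exact two-sided permutation test, chosen after the values had been seen. *Psmb10* relative to *Psmb7*, the constitutive subunit it replaces, was -1.45 ± 0.50 (SD, n = 5) in controls against -2.54 ± 0.52 (SD, n = 7) after surgery (exact permutation *P* = 0.00758, 0.0379 adjusted over the 5 ratios). In 5 of 7 cryptorchid libraries it lay below every control library. *H2-D1* relative to *B2m* was -0.77 ± 0.47 (SD, n = 5) and 0.21 ± 0.63 (SD, n = 7), higher in 5 of 7 cryptorchid libraries than in any control library (exact permutation *P* = 0.0227, adjusted 0.0568). The ratios of *Psmb8* to *Psmb5*, *Psmb9* to *Psmb6* and *H2-K1* to *B2m* differed by 1.78, 0.18 and 0.30, and none passed the test (exact permutation *P* = 0.144, 0.530 and 0.439). Without replicates 3 of both groups the first 2 differences were -1.12 and 0.998 (exact permutation *P* = 0.00952 and 0.0381).

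**Figure D3:**
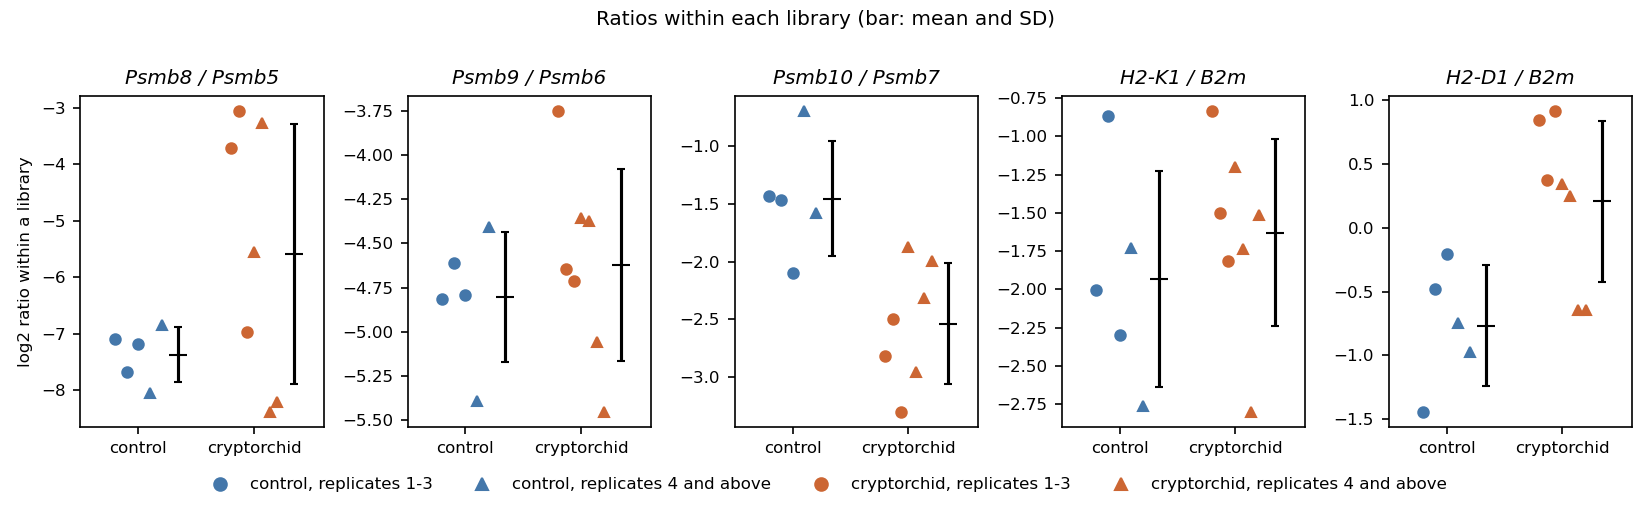
Log2 ratio of 2 genes within each library (vertical axis), for the 3 immunoproteasome subunits relative to their constitutive counterparts and the 2 heavy chains relative to *B2m*, with mean and SD. *Psmb10* relative to *Psmb7* was lower by 1.09 on average in cryptorchid libraries and *H2-D1* relative to *B2m* higher by 0.98.

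Within the 7 cryptorchid libraries, none of the 9 genes passed the exact test for a relation with *Nlrc5*. Pearson's *r* with *Nlrc5* ran from -0.68 for *Psmb10* to 0.61 for *Tap1*, with a median of 0.096 (0.40 after median centring of the libraries), and 6 of the 9 were above 0. The smallest exact permutation *P*-value over the 5040 pairings was 0.0875 for *Psmb10* (0.675 adjusted over the 9 genes, Spearman's rho -0.64, exact permutation *P* = 0.139). For *H2-D1*, *r* was 0.31 and rho 0.036 (exact permutation *P* = 0.498 and 0.964), and for *B2m* they were -0.49 and -0.32 (exact permutation *P* = 0.260 and 0.498). Without replicates 6 and 7, which lay farthest from the median of *Nlrc5*, *r* was -0.35 for *H2-D1*, -0.47 for *B2m* and -0.51 for *Psmb10*. It moved most for *Psmb8* (-0.90), *Tap2* (-0.81) and *Psmb9* (-0.63), and 8 of the 9 were then below 0. *Nlrc5* covered a range of just 0.86 on the log2 scale in these libraries, and with 7 libraries a relation short of a large *r* would not pass the test. When each library was set against the mean of its own group over all 12 libraries, the median *r* was 0.56, and control replicate 3, lowest in *Nlrc5*, *B2m*, *H2-K1*, *H2-D1*, *Psmb9* and *Psmb10* among controls, enters that value.

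**Figure D4:**
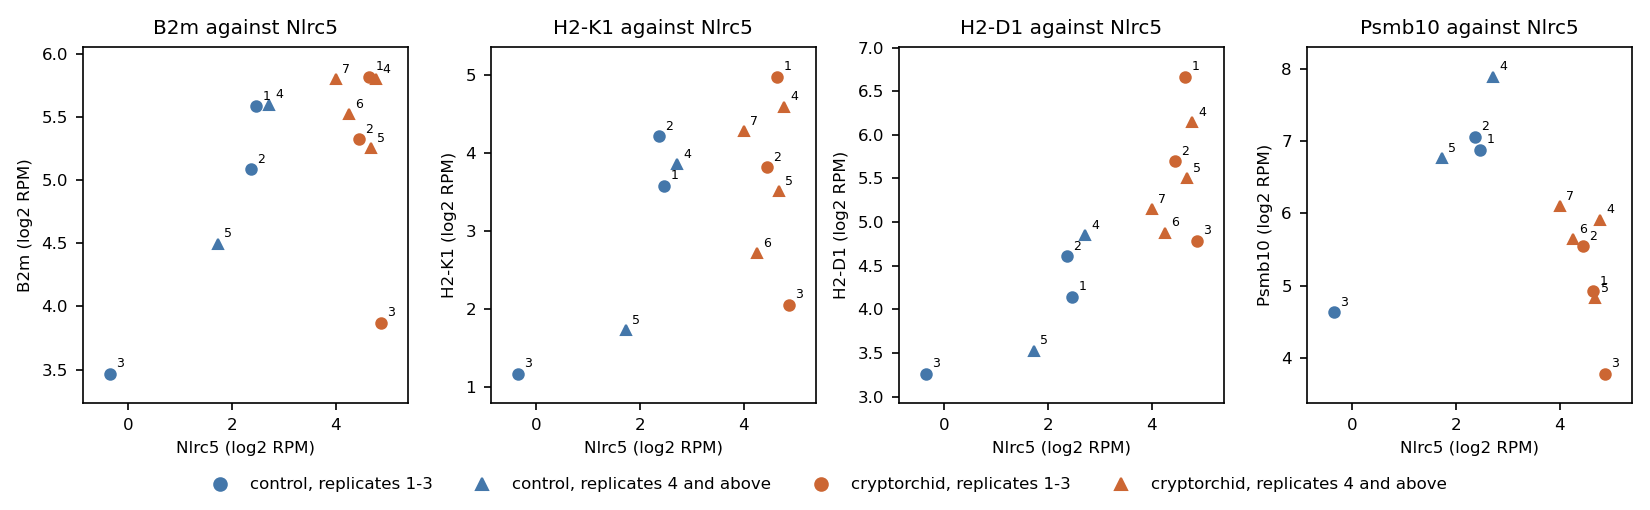
*B2m*, *H2-K1*, *H2-D1* and *Psmb10* (log2 RPM, vertical axes) against *Nlrc5* (log2 RPM, horizontal axis), with the replicate number beside each library. Cryptorchid libraries stand in a narrow band of *Nlrc5* from 4.01 to 4.87, and replicate 3 is the lowest in all 4 genes in both groups.

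The genes whose pattern was most like that of *Nlrc5* were sought among 14545 genes with at least 20 reads per library on average. By Pearson's *r* over all 12 libraries, which includes the difference between the groups, they were *Slc36a2* (0.95), *Lrrc8e* (0.93), *Thsd7b* (0.92), *Ltb* (0.91) and *2210010C04Rik* (0.90). *H2-D1* stood 24th at 0.84. By deviations from the group means, which leave that difference out, they were *Slc36a2* (0.92), *Prdm1* (0.92), *Fam53a* (0.91), *Pard6b* (0.90) and *Arl16* (0.89), and the first presentation gene, *Psmb10*, ranked 1253 (0.60). Control replicate 3, lowest in *Nlrc5*, was also the lowest control library in *Slc36a2* (8 reads), *Prdm1* (0 reads), *Pard6b* and *Arl16* (6 reads each). It enters both rankings, so they lean in part on 1 library.

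On chromosome 8 none of the 4 genes nearest to *Nlrc5* was called higher. Upstream, *Herpud1*, which encodes a membrane protein of the endoplasmic reticulum stress response, fell by 1.53 on the log2 scale (SE 0.41, adjusted *P* = 0.223), and *Slc12a3* differed by -0.14 (SE 0.59). Downstream, *Cpne2* differed by 0.80 (SE 1.02) and *Fam192a* by -0.13 (SE 0.25), and neither was called.

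The regulators that act with NLRC5 or upstream of it were 18 genes, of which 1 was called higher and none lower, with a median difference of 0.12. Of all genes tested, 3.56% were called higher and 2.36% lower. *Irf2*, an interferon regulatory factor, stood at 3.55, 3.74, 3.36, 2.50 and 3.18 log2 RPM in control libraries and from 4.12 through 5.12 to 5.56 in cryptorchid libraries. The groups did not overlap, which was seen upward for 0.555% of the genes tested. *Irf2* rose by 1.83 on the log2 scale (SE 0.35, adjusted *P* = 0.104). *Irf1* (-0.27, SE 0.51) and *Jak1* (0.14, SE 0.25) were not called. The 6 subunits of RFX and NF-Y, through which NLRC5 reaches DNA, differed by -0.50 to 0.76 and none was called.

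The interferon genes *Ifng* and *Ifnb1* had 0 reads in every library, and other interferon genes were not looked up. Of 15 tested interferon-induced genes, 1 was called higher and none lower, against 3.56% and 2.36% of all genes tested. Their median difference was 0.28. *Gbp3*, a guanylate-binding protein gene, rose by 1.44 (SE 0.62, adjusted *P* = 0.479), a call that was lost under 9 of 27 alternative settings. *Oasl2* (-0.45, SE 0.35), *Irgm2* (0.63, SE 0.35), *Igtp* (0.28, SE 0.46) and *Gbp2* (-0.63, SE 0.90) were not called.

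No other class I heavy chain gene was called. Of 11 tested, the median difference was 0.035. *H2-M3* differed by -0.21 (SE 0.53), *H2-Q2* by -0.38 (SE 0.44), *H2-T22* by 0.59 (SE 0.55) and *H2-Q7* by 0.041 (SE 0.67). Many of these genes share sequence with one another, so their reads could have been split between them.

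Of 7 genes that trim and load peptides in the endoplasmic reticulum, 1 was called lower and none higher, against 2.36% and 3.56% of all genes tested. Their median difference was 0.27. *Tapbpl*, which encodes the tapasin-related peptide editor TAPBPR, stood at 5.13, 4.82, 3.74, 4.82 and 3.63 log2 RPM in control libraries and between 1.57 and 3.54 in cryptorchid libraries. The groups had no overlap, seen downward for 0.283% of the genes tested. *Tapbpl* fell by 1.38 on the log2 scale (SE 0.45, adjusted *P* = 0.347), though it was not called within the later replicates alone, where its difference was -0.76. *Pdia3*, *Hspa5*, *Bcap31* and *Calr*, general folding and quality control genes, differed by 0.39, 0.30, 0.18 and 0.27 and were not called. The other 2 genes, named after their values had been seen, did not reach 2-fold. The peptide-trimming aminopeptidase gene *Erap1* differed by -0.68 (SE 0.27, adjusted *P* = 0.430), and the chaperone gene *Canx* by 0.75 (SE 0.38, adjusted *P* = 0.559), with 5 of 7 cryptorchid libraries above every control library. None of the 7 constitutive proteasome subunits and activators was called, and their median difference was -0.39.

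**Figure D5:**
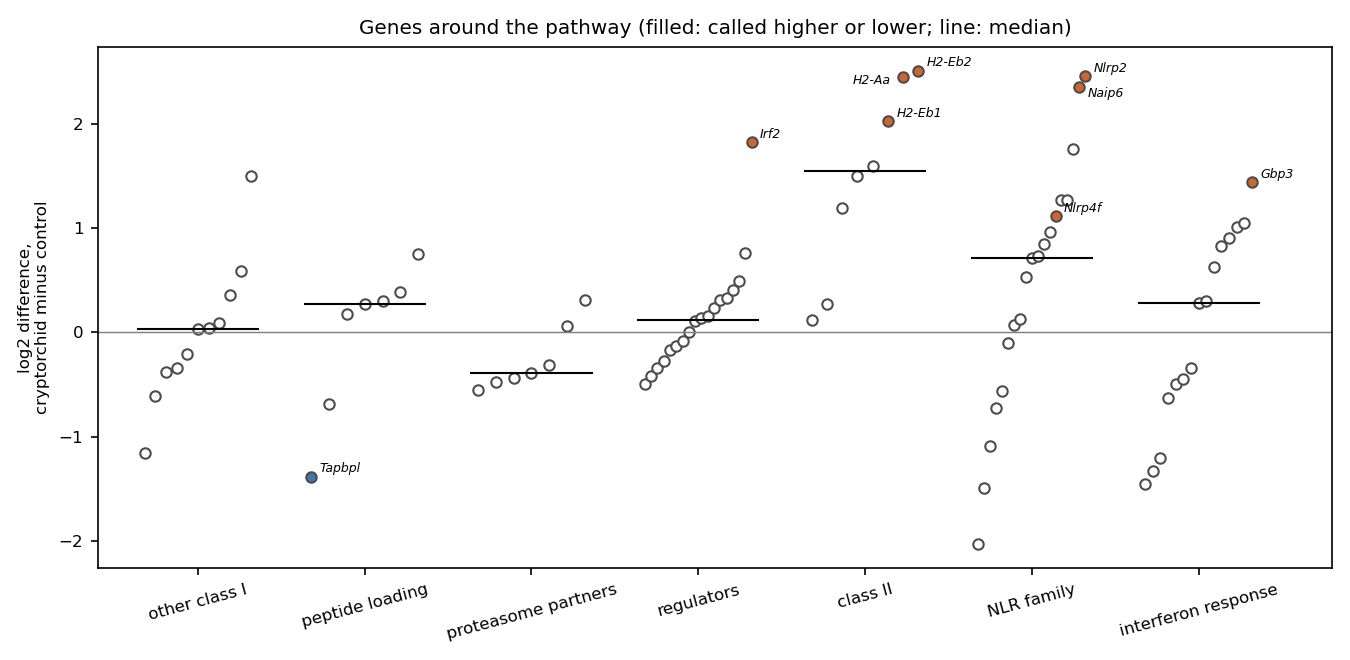
Log2 difference between cryptorchid and control libraries (vertical axis) of each tested gene in 7 lists around the pathway, with called genes filled and named and a line at the median of each list. *H2-Aa* and *Nlrp2* had no read in any control library, so their plotted values depend on the floor of the log2 values.

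MHC class II genes are used by antigen-presenting cells. Of 8 tested, 3 were called higher and none lower, against 3.56% and 2.36% of all genes tested. The median difference of the 8 was 1.55, also with *H2-Aa* at its lower bound. *H2-Aa* had 0 reads in every control library and up to 23 in cryptorchid libraries, at least 18.6-fold higher against a floor of 3 reads over the control group. It passed the filter on low values through cryptorchid reads alone, so it could only come out higher. Cryptorchid replicate 1 gave 23 of its 45 reads, 3 cryptorchid libraries had none, and without replicate 1 it was at least 14.6-fold higher. *H2-Eb1* (2.02, SE 0.82, adjusted *P* = 0.447) and *H2-Eb2* (2.51, SE 1.13, adjusted *P* = 0.494) rose from at most 16 and 8 reads to at most 113 and 48. Their mean log2 RPM in controls was -1.39 and -2.58, under the filter limit of -1, so both passed largely through cryptorchid reads. The 3 calls and the median of the 8 are therefore not comparable with the shares over all genes tested. The calls of *H2-Aa*, *H2-Eb1* and *H2-Eb2* were lost under 14, 6 and 15 of 26 alternative settings. *H2-DMa*, with 16 to 335 reads per control library and 28 to 312 per cryptorchid library, differed by 0.12 (SE 0.49). *H2-Ab1* (1.20, SE 0.65), *Ciita* (1.5, SE 1.05) and *Cd74* (1.59, SE 1.35) were not called either.

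Markers of other cells of the testis were measured beside these genes. Immune and endothelial cells carry far more class I RNA than germ cells, and antigen-presenting cells carry class II RNA. Shares called over all genes tested were 3.56% higher and 2.36% lower. Of 7 tested macrophage markers 1 was called higher, *Mrc1* (2.02, SE 0.56, adjusted *P* = 0.226). By group means 4 of the 7 were higher and 3 lower (*Cd14*, *C1qb* and *Cd68*), and none of the others was called. The summed level of the macrophage list was 3.63 to 25.2 RPM in control and 11.3 to 37 RPM in cryptorchid libraries. Of 5 endothelial markers 2 were called higher, *Cdh5* (2.01, SE 0.67, adjusted *P* = 0.359) and *Tie1* (2.86, SE 0.96, adjusted *P* = 0.359), with sums of 8.73 to 22.9 and 11.4 to 40.0 RPM. The other endothelial markers, *Tek* (0.05, SE 0.56), *Pecam1* (0.39, SE 0.63) and *Emcn* (0.50, SE 1.17), were not called. *Tie1* had no read in 4 control libraries and at most 1 in a control library. It passed the filter through its cryptorchid reads, so its difference depends on the floor of the log2 values. Lymphocyte markers summed to 2.71 to 9.82 and 2.78 to 22 RPM with none of 5 called, and *Nkg7* had no read in any library. Of 3 tested myoid markers 1 was called higher, *Des* (2.55, SE 0.91, adjusted *P* = 0.386), while *Myh11* differed by -1.14 (SE 1.13), and the list summed to 0.91 to 15.2 RPM in control and 0.48 to 12.1 RPM in cryptorchid libraries. *Des* had no read in 3 control libraries and at most 3 in a control library, so its difference depends on that floor too. Of 5 markers of differentiating spermatogonia *Stra8* was called higher by 1.09 and *Dnmt3b* lower by 1.20 on the log2 scale, and no tested marker of spermatocytes, Sertoli cells or Leydig cells was called. Of 5 spermatid markers 2 were called lower, *Prm1* and *Prm2*, by 2.40 and 3.73 on the log2 scale. *Tnp1* (-2.20, SE 1.12), *Tnp2* (-2.37, SE 1.35) and *Acrv1* (-0.55, SE 0.89) were not called, and the list had sums of 466.3 to 2510 RPM in control and 11.6 to 1649 RPM in cryptorchid libraries. The part of these cells in the levels of *Nlrc5*, *H2-D1*, *Psmb10* or the class II genes was not tested. In such bulk libraries more cells of a type and more RNA per cell cannot be told apart.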

How the data were processed

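RNA of GFRa1-EGFP+/KIT- cells from 5 control and 7 cryptorchid testes (about 1000 sorted cells, RNA of about 200 cells per library) was sequenced after Smart-seq2 amplification of full-length cDNA, without molecular identifiers. Reads were trimmed with Trim Galore (0.6.6 per the labels) and aligned to mm10 with HISAT2 (2.1.0). SeqMonk gave the read numbers of protein-coding genes, and the authors deposited these as log2 RPM for 21859 genes. Instruments per library and the counting strand are not given in the sources used here, and 0 columns belonged to no sample. Columns were matched to samples by name.

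The reads behind each value were recovered from the steps of the log2 RPM values, of which 100% of those below 1000 reads came out whole within 0.05 reads. A gene without reads is entered as 0.9 reads. Since the deposited values are log2 RPM, the tests were limma 3.58.1 (lmFit and eBayes with trend) in R 4.3.3 over the 16932 genes with log2 mean RPM above -1, two-sided, with Benjamini-Hochberg adjustment. Calls required 2-fold and an unadjusted *P*-value under 0.05. Ratios and correlations were tested by exact two-sided permutation in Python 3.11.15 with scipy 1.17.1. The fit was tested on simulated data. Gene positions and exon lengths are those of GENCODE vM21 on GRCm38, and promoters are RefSeq sequences on GRCm38.p6, from 250 bases before the start. Floors of 3 reads and read numbers cover counting error only, since PCR copies are not independent molecules. Nothing says which libraries came from separate animals, so *P*-values measure the spread between these libraries.

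The 10 genes and the lists were chosen with earlier results of these data known. One regulator gene is not reported here. Named genes are the 10, every called gene of each list and up to 4 others of highest mean, the 5 genes most like *Nlrc5* by each of 2 measures, and the 2 genes on either side of it. Alternatives were other scalings, offsets, a common floor, other filters, array weights, voom on recovered reads, a block for the replicate number, a term for the technical set, each set alone and each library left out. The ratios within a library, leaving out both replicates 3, and the libraries of the block without the block were added after the data were seen.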

Additional observations from a re-analysis of the deposited data

Results flagged for a closer look

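In 2 of 38 groups examined (19 genes in 2 groups of libraries), 1 library lay far from the others, and chance alone flags about 1 group in 20. Both cases were cryptorchid replicate 3. *B2m* stood there at 3.87 log2 RPM (123 reads), with the next library at 5.25, a gap of 0.709 of the whole range of the group. *Tapbpl* stood at 1.57 (25 reads), with the next library at 2.86, a gap of 0.654 of the range. Replicate 3 was the lowest library in *B2m* in the control group as well.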

How the results depend on the processing

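*H2-D1* kept its direction and its call under all 27 alternatives, between 1.23 and 1.71 on the log2 scale, and *Psmb10* kept its call under 26 of 27. The number of genes called over all genes was 1585 with array weights, 1678 with the replicate block and 632 within replicates 1 to 3 alone, against 1002, and 829 to 1248 when 1 library was left out. At an adjusted *P*-value of 0.05 it was 476 with array weights and 985 with the block, against 2. Within replicates 1 to 3 alone, 1 presentation gene was called (*H2-D1*), where fewer libraries entered the fit. *Tap1* reversed to 0.61 within replicates 1 to 3, to 0.057 in the 10 libraries of the replicate block with and without the block, and ran from -1.86 to 0.19 when 1 library was left out. *Psmb9* reversed to 0.0019 within replicates 1 to 3. The cause of these changes was not tested. The median difference of the presentation genes was 0.098 over the 6 left by a filter at 2. Over all 9 it ran from 0.15 to 0.74 and that of *Nlrc5* from 2.20 to 2.97 when 1 library was left out. The median *r* with *Nlrc5* was 0.56 as deviations from the group means over 12 libraries, 0.40 after median centring, -0.039 as deviations from the means of the technical sets, and 0.0096 to 0.38 when 1 cryptorchid library was left out, against 0.096.

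The sources used here do not say that replicate numbers pair libraries. Same-numbered libraries deviated together with *r* of 0.35, 0.36, 0.41, 0.25 and 0.049 for replicates 1 to 5. The highest *r* with another number was 0.18, 0.25, 0.074, 0.24 and 0.27. Replicates 1 to 4 thus correlated best with their own number, replicate 4 by a small margin, and replicate 5 did not. With the replicate block in the 10 numbered libraries, *H2-D1* differed by 1.68 (adjusted *P* = 0.00349) and *Psmb10* by -1.65 (adjusted *P* = 0.00143), against adjusted *P*-values of 0.184 and 0.297 in the same libraries without the block. With array weights they were 0.032 and 0.029, and over all alternatives they ran up to 1. *Psmb8* was called higher in those 10 libraries with and without the block. Few reads in part of the libraries limit *Tap1*, *Tap2*, *Psmb8*, *H2-Aa*, *H2-Eb1*, *H2-Eb2*, *Tie1* and *Des*.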

Other observations

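Among 19 tested relatives of *Nlrc5* in the NOD-like receptor family, 3 were called higher and none lower. Over all genes tested, 3.56% were called higher and 2.36% lower. The median difference of the 19 relatives was 0.71 on the log2 scale, also with *Nlrp2* at its lower bound. *Nlrp4f*, a member of a germline-expressed cluster, rose by 1.11 (SE 0.29, adjusted *P* = 0.215), a call lost under 3 of 27 alternatives. It had no overlap between the groups, as was seen upward for 0.555% of the genes tested. Its relative *Nlrp4c*, with up to 3709 reads in a control library, differed by 0.071 (SE 0.30), and *Nlrp14* by -0.56 (SE 0.72). *Naip6* was called higher at 2.36 (SE 1.03, adjusted *P* = 0.483), a call lost under 11 of 26 alternatives. *Nlrp2* had 0 reads in every control library and up to 101 in cryptorchid libraries, at least 56.2-fold higher against a floor of 3 reads over the control group, with a call lost under 11 of 26 alternatives. It passed the filter on low values through cryptorchid reads alone, so it could only come out higher. Cryptorchid replicate 1 gave 101 of its 136 reads, 4 cryptorchid libraries had none, and without replicate 1 it was at least 23.2-fold higher.

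In the 5 control libraries, replicates 3 and 5 were the lowest in *Nlrc5* (-0.35 and 1.73 log2 RPM) and also in *B2m* (3.47 and 4.50), *H2-K1* (1.17 and 1.73) and *H2-D1* (3.26 and 3.53). Replicate 3 was also the lowest control library in the constitutive proteasome genes *Psmb5* (4.83), *Psmb6* (7.0) and *Psmb7* (6.73), and replicate 5 was the highest in *Psmb9* (4.48) and *Psmb8* (-0.17). With 5 libraries this is given as values without a correlation.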
